A study of Mus musculus with 4 samples.

Results

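The genes described here encode solute carriers, the membrane proteins that move sugars, organic acids, amino acids, ions, metals and cofactors across the cell surface and the membranes of organelles. They were selected by symbol and by level: every symbol that starts with Slc and a family number and had a mean of at least 1 FPKM over the wild-type libraries, without Slc25a4, Slc25a5, Slc25a31, Slc26a8, Slc9a10 and Slc9c1. FPKM is a fragment number scaled to transcript length and to all mapped fragments, so levels can be compared between genes. This gave 106 genes of 354 Slc symbols, in tables of 22552 symbols. The wild-type level that chose them is therefore a description, and a gene just above 1 FPKM in the wild type had more room to be lower than higher in the knockout.

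RNA was sequenced from haploid cells of mouse testis, taken at 23 days of age and sorted by their Hoechst staining, labelled as round spermatids, the cells that follow meiosis and later become sperm. The 4 libraries comprised 2 from wild-type mice and 2 from Sox30 knockout mice, which lack a transcription factor of the SOX family. The strain label differs by library, at DBA/C57/ICR and DBA/C59/ICR for the wild-type and DBA/C58/ICR and DBA/C60/ICR for the knockout libraries 1 and 2, and the labels name neither the deleted part of Sox30 nor whether each library had its own animals. P-values therefore rest on the spread of these libraries alone, and that spread may be technical.

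Round spermatids live behind the barrier formed by Sertoli cells and take up lactate and pyruvate from them, mainly through monocarboxylate transporters of the Slc16 family, while hexoses enter through the Slc2 (GLUT) family. Within the cell, the Slc25 family carries nucleotides, phosphate, organic acids and cofactors across the inner mitochondrial membrane. Several carriers, among them Slc22a14 and Slc22a16, are known chiefly from testis and sperm.

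The targeted gene stood at 11.4 and 16.2 FPKM in wild-type libraries 1 and 2 and at 1.46 and 3.16 FPKM in knockout libraries 1 and 2. All 10 round spermatid markers were detected in each library, with summed levels of 3823 and 3356 FPKM in wild-type cells and 1976 and 1331 FPKM in knockout cells, and 5 of the 10 fell. Sums of most marker lists of other cell types were lower in the knockout too. The 10 Leydig cell markers summed to 62.2 and 38.9 FPKM in wild-type cells and to 22.6 FPKM (nearly all Fabp3) and practically 0 in the knockout, with 7 of them listed at 0 in both knockout libraries. The 12 blood and macrophage markers summed to 248 and 148 versus 9.32 and 0.461 FPKM, with 6 at 0 in both knockout libraries. The 9 Sertoli cell markers found summed to 101 and 268 versus 82.6 and 42.0 FPKM, mostly Clu, with Amh at 0 in all libraries. Spermatogonial markers (8) summed to 36.9 and 40.9 versus 19.1 and 18.8 FPKM. Of these 4 were tested and 3 fell, and 4 were at 0 in both knockout libraries. Id4 was higher in both, at 7.50 and 7.68 versus 13.0 and 15.5 FPKM, and did not pass. Spermatocyte markers (12) summed to 547 and 529 versus 586 and 458 FPKM, and Sycp3 and Ccna1 made up most of these sums. All 12 were tested, and 2 fell, Smc1b and Rec8. Most of the 12 were lower in both knockout libraries, and the median log2 change of the list was -0.84. Ccna1 was higher in both knockout libraries, at 163 and 192 versus 369 and 210 FPKM, and did not pass. Peritubular and endothelial markers (8) summed to 9.45 and 7.61 versus 1.68 and 2.40 FPKM. The part of such cells in the carrier results was not tested, and in bulk samples fewer cells of a type and less RNA per cell cannot be told apart.

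Loss of Sox30 went with a deep fall of some carriers. Of the 10 carriers that averaged at least 50 FPKM in the wild type 8 did not pass the test, and most tested genes did not pass either. Slc22a14, Slc16a7, Slc25a41 and Slc36a3 lost nearly all of their transcript, and 8 carriers of low level fell with them. The single carrier that rose was Slc25a28, an importer of iron into mitochondria. Of the 106 genes, 93 had a mean of at least 1 FPKM over all 4 libraries and were tested with limma on log2(FPKM + 1). Of these 12 fell, 1 rose and 80 did not pass at an adjusted p under 0.05. For 16 of the 80 the 95% interval of the log2 change excluded 0, with 14 lower and 2 higher. The unadjusted p in limma was under 0.05 for 29 of the 93 carriers, beside 2860 of all 9124 genes tested. The falls were 12.9% of the tested carriers, where 13.9% of the tested genes with a wild-type mean of at least 1 FPKM fell (13.4% of all genes tested). The rise was 1.08%, beside 1.56% (1.95% of all). Both shares were near those of other genes, so the numbers of calls say nothing particular about solute carriers. Counts depended on the libraries. With wild-type library 1 left out, 4 carriers fell (Slc25a17, Slc25a30, Slc25a41 and Slc39a12) and 0 rose in limma, with 19 at an unadjusted p under 0.05, and the adjusted p was 0.0654 for Slc22a14 and 0.0875 for Slc16a7. With wild-type library 2 left out 0 carriers, and 0 of all 9124 genes, passed in either direction, with 14 carriers at an unadjusted p under 0.05. Leaving out knockout library 1 moved the median log2 change of the tested carriers to -0.90 and that of all tested genes to -0.40. Leaving out knockout library 2 moved these medians to 0.04 and -0.06.

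**Figure D1:**
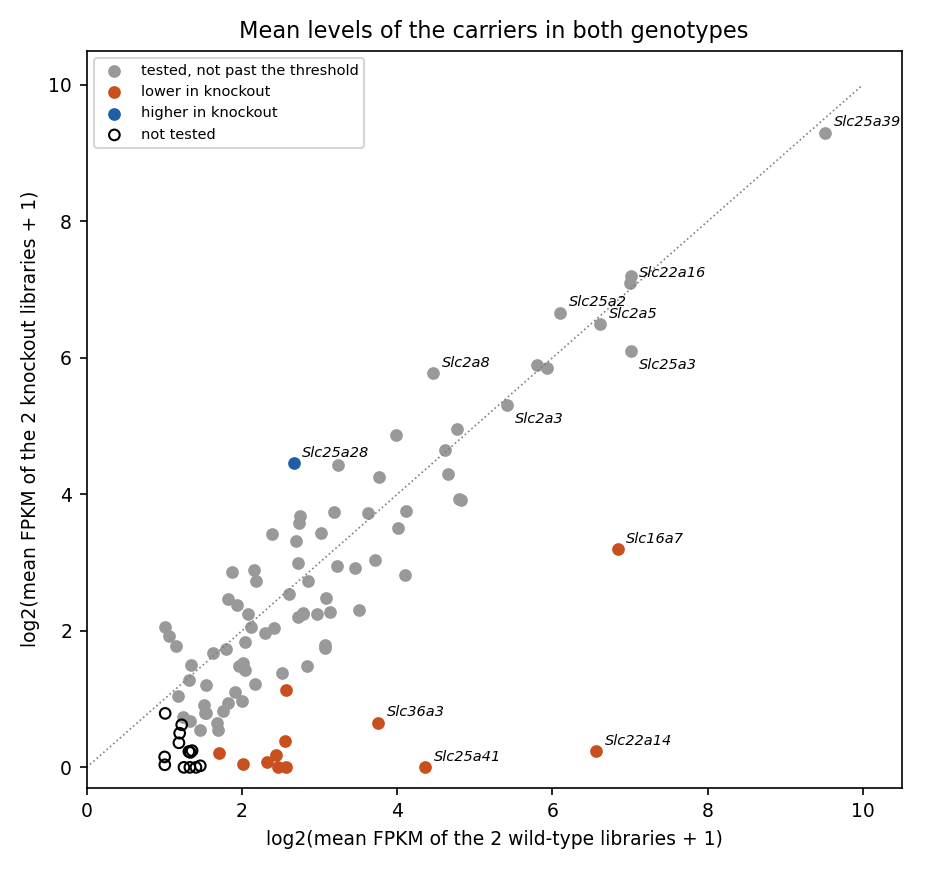
Mean level of each of the 106 carriers in the wild-type (horizontal) and knockout libraries (vertical), as log2 of the mean FPKM plus 1, with colours for the limma result and open circles for the 13 genes not tested. Points lie on both sides of the dotted line of equal means. The 12 fallen carriers, among them Slc22a14, Slc16a7, Slc25a41 and Slc36a3, lie below it and Slc25a28 above it.

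The median log2 change of the 93 tested carriers was -0.51, beside -0.27 for all tested genes with a wild-type mean of at least 1 FPKM and -0.23 for all genes tested. Under quantile normalization the median of all tested genes shifted from -0.23 to 0.17, and that of the carriers to 0.02. After it 75 of the 93 carriers kept their direction, 10 of the 12 falls passed again, and 7 carriers passed as higher, Slc25a28 among them. Of all 9124 genes tested, 606 passed as higher under that setting. For 33 tested carriers (35.5%) both knockout values lay below both wild-type values, beside 40.0% of tested genes at that wild-type level and 38.6% of all tested. For 15 (16.1%) both lay above, beside 20.8% and 22.2%, and for 45 the genotypes overlapped.

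Among the lowest wild-type means of the chosen genes were 1.01 FPKM for Slc13a4, with a knockout mean of 0.112 FPKM, and 1.02 FPKM for Slc25a12, with a knockout mean of 3.17 FPKM. Just below the cutoff were Slc26a6 and Slc25a37 at 0.972 and 0.969 FPKM. Of the 244 Slc symbols left out for a lower wild-type mean, 5 were tested and 0 passed in either direction.

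Slc22a14, a member of the organic cation and anion carrier family and needed for normal sperm motility in mice, had the largest fall on the log2(FPKM + 1) scale. Its level was 85.3 and 102 FPKM in wild-type libraries 1 and 2, 0.365 FPKM in knockout library 1 and 0 in knockout library 2. Both knockout libraries were far below both wild-type libraries, and the knockout mean was 0.194% of the wild-type mean. The log2 change was -6.34 (SE 0.36, limma adjusted p = 0.00048).

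Slc16a7 encodes MCT2, a monocarboxylate transporter with high affinity for pyruvate and lactate. It was the most abundant fallen carrier, at 111 and 117 FPKM in wild-type cells and 8.75 and 7.57 FPKM in knockout cells. Unlike Slc22a14, it was still clearly detected in both knockout libraries, at 7.17% of the wild-type mean. Its log2 change was -3.65 (SE 0.29, limma adjusted p = 0.00103).

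Slc25a41, a member of the ATP-Mg/phosphate carrier group of mitochondria, stood at 19.1 and 20.0 FPKM in wild-type cells and was listed at 0 in both knockout libraries. The log2 change was -4.36 (SE 0.34, limma adjusted p = 0.00094). Slc36a3, of the proton-coupled amino acid transporter family, went from 14.3 and 10.8 FPKM to 1.15 FPKM and 0. Its log2 change was -3.19 (SE 0.48, limma adjusted p = 0.00855).

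The other fallen carriers had wild-type means under 5 FPKM, where the log2(FPKM + 1) scale understates changes. Slc25a30 and Slc39a12 were listed at 0 in both knockout libraries, from 4.26 and 5.56 FPKM and from 5.23 and 3.78 FPKM. Of the 12 fallen carriers 9 were listed at 0 in knockout library 2 and 4 in knockout library 1, and in 11 the knockout mean was under 10% of the wild-type mean. The exception was Slc38a9, at 24.5%. With a pseudocount of 0.1 the calls of Slc36a3, Slc31a2, Slc25a24 and Slc38a9 ended (limma adjusted p from 0.0682 to 0.0728), and with no filter on low values those of the same genes and of Slc36a4 ended (0.0503 to 0.0993). Slc25a24 and Slc38a9 also lost theirs after quantile normalization (0.068 and 0.148).

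**Figure D2:**
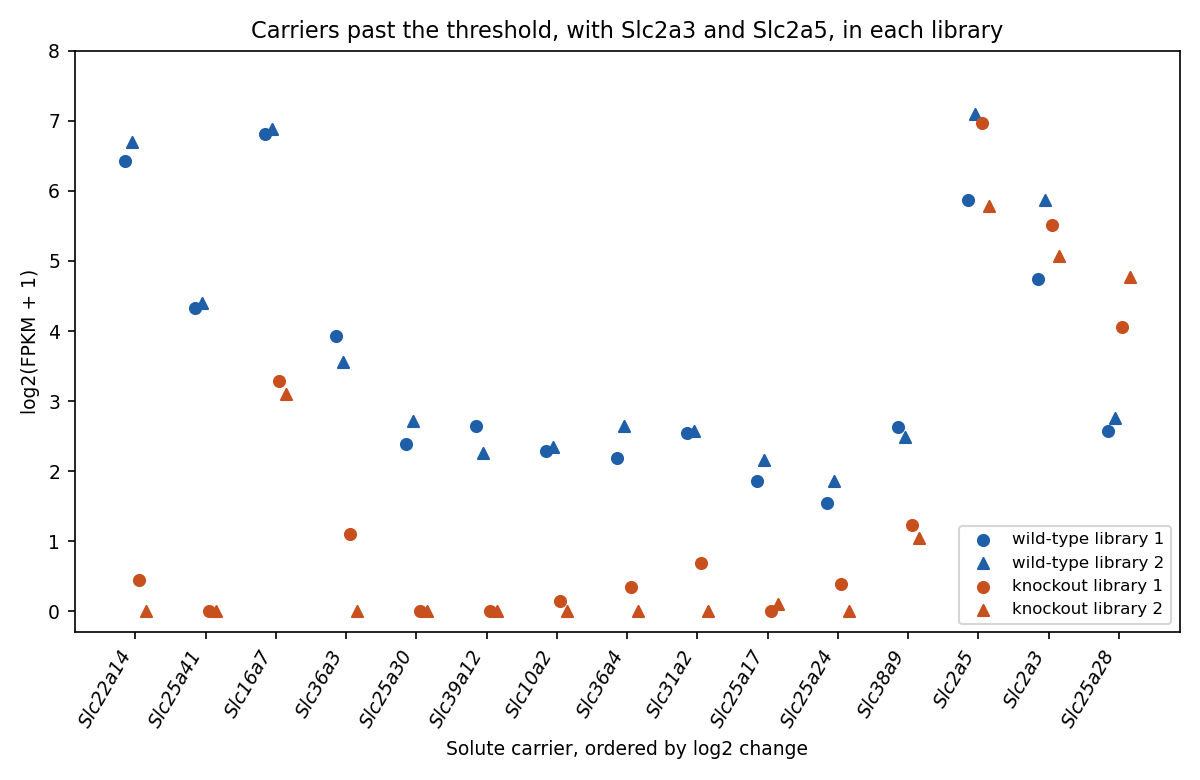
log2(FPKM + 1) in each of the 4 libraries (circles for library 1, triangles for library 2) for the 13 carriers past the threshold and for the hexose carriers Slc2a5 and Slc2a3, ordered by log2 change. In the 12 fallen carriers both knockout points lie below both wild-type points, whereas Slc2a5 and Slc2a3 overlap between genotypes, and Slc25a28 is higher in both knockout libraries.

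The stretch of 250 bases before the transcription start is shown for 4 fallen carriers and for the carrier that rose. The 4 are the largest falls with an entry in the RefSeq promoter table (GRCm38.p6). Each stretch runs 5′ to 3′ toward the start. Capitals mark ACAAT, the core that SOX factors recognise, and TGACG, a part of the cAMP response element that CREM binds, both searched on both strands, where they read ATTGT and CGTCA. The motifs share no overlapping match in these stretches.
Slc22a14, chr9:119190396-119190645, minus strand: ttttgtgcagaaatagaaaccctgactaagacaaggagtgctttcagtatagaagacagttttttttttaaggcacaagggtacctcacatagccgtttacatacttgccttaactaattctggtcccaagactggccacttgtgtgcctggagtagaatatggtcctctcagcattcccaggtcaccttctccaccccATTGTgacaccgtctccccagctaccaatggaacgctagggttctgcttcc
Slc36a3, chr11:55151709-55151958, minus strand: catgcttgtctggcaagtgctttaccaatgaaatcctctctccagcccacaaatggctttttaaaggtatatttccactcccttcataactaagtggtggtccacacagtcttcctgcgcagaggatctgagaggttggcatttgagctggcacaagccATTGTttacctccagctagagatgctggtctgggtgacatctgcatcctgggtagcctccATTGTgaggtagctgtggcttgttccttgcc
Slc25a30, chr14:75787038-75787287, minus strand: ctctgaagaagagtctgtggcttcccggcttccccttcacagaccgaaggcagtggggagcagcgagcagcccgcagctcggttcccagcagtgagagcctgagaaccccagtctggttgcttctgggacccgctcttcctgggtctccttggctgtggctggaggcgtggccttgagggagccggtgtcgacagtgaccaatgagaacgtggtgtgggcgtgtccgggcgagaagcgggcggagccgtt
Slc39a12, chr2:14388148-14388397, plus strand: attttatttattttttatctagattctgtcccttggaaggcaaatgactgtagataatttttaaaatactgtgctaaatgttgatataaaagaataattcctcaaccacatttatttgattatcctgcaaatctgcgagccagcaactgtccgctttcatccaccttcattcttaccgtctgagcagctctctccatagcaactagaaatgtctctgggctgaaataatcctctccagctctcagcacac
Slc25a28, chr19:43674882-43675131, minus strand: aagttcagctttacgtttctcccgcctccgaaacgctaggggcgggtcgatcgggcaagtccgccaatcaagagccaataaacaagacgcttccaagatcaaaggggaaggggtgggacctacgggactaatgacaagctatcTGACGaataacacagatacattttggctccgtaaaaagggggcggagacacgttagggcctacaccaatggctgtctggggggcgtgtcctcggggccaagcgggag
Slc22a14 held ATTGT at 51 to 47 bases before the start, and Slc36a3 held it at 91 to 87 and at 31 to 27 bases. Slc25a28 held TGACG at 107 to 103 bases, and the stretches of Slc25a30 and Slc39a12 held neither motif. Of the 12 fallen carriers 10 had an entry, and 3 of the 10 held ACAAT on either strand, beside 30.9% of all 27025 symbols in the table and 17 of the 82 carriers with an entry (20.7%). TGACG was in 0 of the 10, in 24 of the 82 (29.3%) and in 19.8% of all symbols. A match is only a run of letters, and the third of these is Slc10a2, with ATTGT at 59 to 55 bases.

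No carrier of sugars passed the test. The class had 5 members, all tested, of which 0 passed at an adjusted p under 0.05 in limma and 0 at an unadjusted p under 0.05. Of tested genes with a wild-type mean of at least 1 FPKM, 13.9% fell and 1.56% rose, so 0 of 5 says little about the class. In each the genotypes overlapped, as they did in 45 of the 93 tested carriers. Of tested genes at that wild-type level, both knockout values were lower in 40.0% and higher in 20.8%. Slc2a5 (GLUT5), a fructose transporter, was at 57.6 and 137 FPKM in wild-type cells and 124 and 54.3 FPKM in knockout cells. The high and low library of each genotype thus differed more than the genotypes did. Its log2 change was -0.11, with a 95% interval of -1.50 to 1.28. Slc2a3 (GLUT3), a high-affinity glucose transporter, was at 25.8 and 57.4 FPKM versus 44.9 and 32.7 FPKM, a change of -0.01 (95% interval -1.13 to 1.11). These intervals span changes of more than 2-fold in either direction. The direction of both small differences turned under some settings, with values from -0.73 to 0.50 for Slc2a5 and from -0.57 to 0.55 for Slc2a3. Slc2a8 (GLUT8), an intracellular hexose transporter, was at 13.1 and 29.1 FPKM versus 80.7 and 26.7 FPKM, so that knockout library 1 alone stood out (log2 change 1.21, SE 0.63, limma adjusted p = 0.247). Without knockout library 2 its log2 change was 1.99 (limma adjusted p = 4.92e-07). Slc5a4b was at 6.78 and 8.16 versus 8.58 and 0.603 FPKM, and its close copy Slc5a4a may share its reads. Slc45a4 was between 0.873 and 2.13 FPKM in all libraries.

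Among monocarboxylate and di- or tricarboxylate carriers (4, all tested) Slc16a7 fell and the other three did not pass. They had low levels, and in each both knockout values lay above both wild-type values. That was 75% of the 4 members, beside 20.8% of tested genes with a wild-type mean of at least 1 FPKM. Slc16a3 (MCT4), which exports lactate, was at 0.503 and 1.66 FPKM versus 2.71 and 2.91 FPKM (log2 change 0.93, SE 0.40, limma adjusted p = 0.180). Slc13a5, a citrate transporter, was at 2.09 and 2.98 versus 4.65 and 4.39 FPKM, and Slc16a9 at 0.876 and 1.55 versus 2.74 and 2.15 FPKM. Slc16a1 (MCT1), left out by the level rule, was at 0.423 and 0.9998 FPKM versus 0 and 0.0129 FPKM, with both knockout values lower. The summed level of the class therefore followed Slc16a7, at 114 and 123 FPKM in wild-type cells and 18.8 and 17.0 FPKM in knockout cells.

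Carriers of lipids, vitamins, choline and organic ions numbered 14, of which 12 were tested, 2 fell and 10 did not pass (median log2 change -0.36). The share that fell was 16.7%, beside 13.9% of tested genes with a wild-type mean of at least 1 FPKM. Beside Slc22a14 the class held 2 abundant carnitine transporters of the same Slc22 family. Slc22a16, a carnitine transporter of testis, was at 96.3 and 159 FPKM in wild-type cells and 185 and 85.6 FPKM in knockout cells (log2 change 0.03, 95% interval -1.12 to 1.18). Slc22a21 (OCTN3) was at 47.9 and 72.3 versus 83.2 and 30.5 FPKM (log2 change -0.22, 95% interval -1.51 to 1.08). Both overlapped between genotypes, with wild-type library 2 and knockout library 1 the higher ones. Within the Slc22 family, Slc22a14 was thus the one member past the threshold among 6 tested. The family's low members Slc22a5, Slc22a15 and Slc22a18 had wild-type means between 3.33 and 7.13 FPKM and log2 changes from -0.51 to 0.40. Slc10a2, the bile acid transporter of ileum, fell from 3.90 and 4.09 FPKM to 0.111 FPKM and 0 (log2 change -2.25, SE 0.31, limma adjusted p = 0.00643). Slc14a2, a urea transporter, was at 29.9 and 23.9 versus 22.1 and 6.31 FPKM (limma adjusted p = 0.255).

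**Figure D3:**
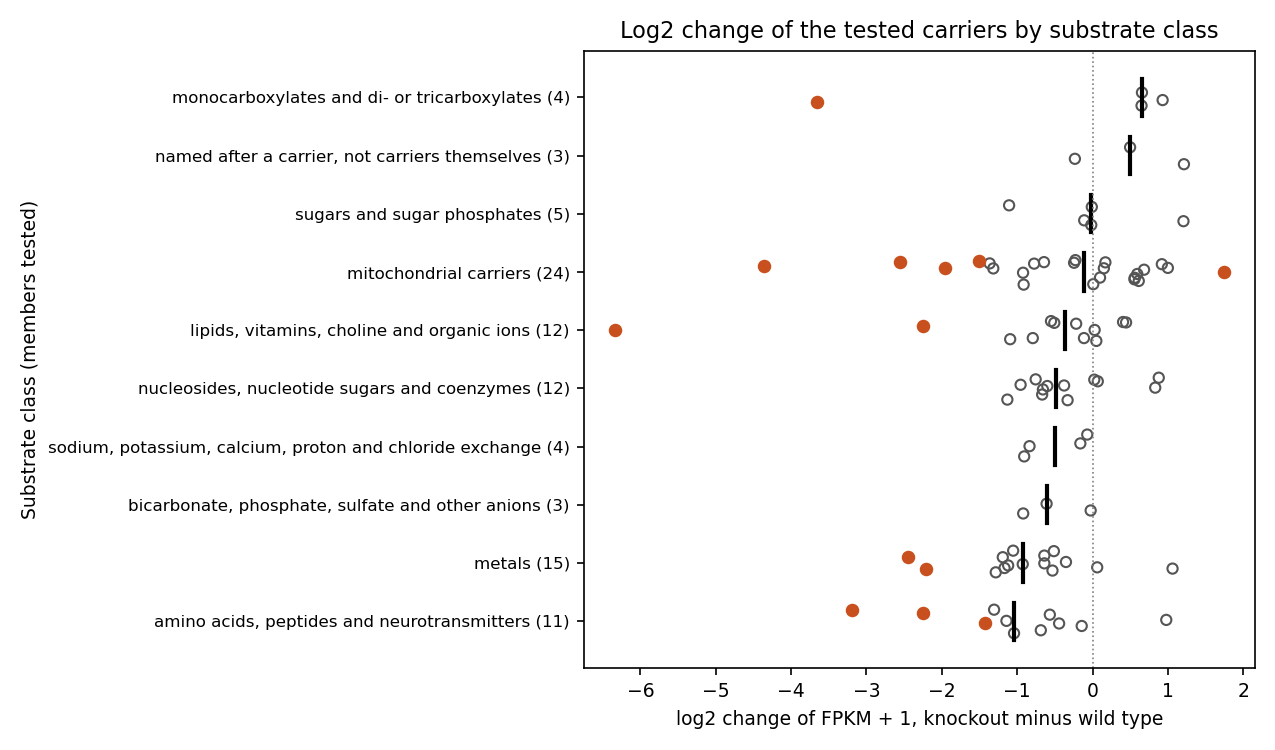
Log2 change (knockout minus wild type, on FPKM + 1) of the 93 tested carriers by substrate class, with filled points for the 13 past the limma threshold, open points for the rest and a bar at each class median. Falls past the threshold are found in 5 classes, and the mitochondrial class holds changes in both directions.

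The mitochondrial carrier family was the largest, with 25 members, 24 of them tested, of which 4 fell, 1 rose and 19 did not pass. Falls were 16.7% and rises 4.17% of the tested members, beside 13.9% and 1.56% of tested genes with a wild-type mean of at least 1 FPKM. Its median log2 change was -0.11. In 9 tested members (37.5%) both knockout values were below both wild-type values, and in 7 (29.2%) they were above, beside 40.0% and 20.8% of tested genes at that wild-type level. The 3 most abundant members did not pass. Slc25a39, which imports glutathione, was the most abundant carrier of all, at 752 and 714 FPKM in wild-type cells and 753 and 507 FPKM in knockout cells (log2 change -0.25, 95% interval -0.99 to 0.50). Slc25a33, a pyrimidine nucleotide carrier, was at 139 and 117 versus 175 and 118 FPKM (log2 change 0.17, 95% interval -0.61 to 0.95). Both overlapped between genotypes. Slc25a3, which imports the phosphate used for ATP synthesis, was at 128 and 128 FPKM versus 78.5 and 57.4 FPKM, with both knockout libraries lower (log2 change -0.92, SE 0.30, limma adjusted p = 0.0975).

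In the Slc25 family 4 members fell. Slc25a41 and Slc25a24 belong to the ATP-Mg/phosphate carriers, which set the adenine nucleotide content of the matrix. Slc25a24 was at 1.91 and 2.64 FPKM versus 0.307 FPKM and 0 (log2 change -1.51, SE 0.33, limma adjusted p = 0.0333). Another carrier of that group, Slc25a25, which was named with its values known, stood at 4.53 and 7.76 versus 1.70 and 1.89 FPKM and did not pass (limma adjusted p = 0.0809). Slc25a30, a kidney mitochondrial carrier by its older name, fell as well (log2 change -2.55, SE 0.33, limma adjusted p = 0.00457). Slc25a17 carries cofactors into peroxisomes and is not mitochondrial. It fell from 2.64 and 3.47 FPKM to 0 and 0.0765 FPKM (log2 change -1.96, SE 0.32, limma adjusted p = 0.0112).

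Slc25a28 (mitoferrin 2) was the carrier that rose, from 4.98 and 5.74 FPKM to 15.7 and 26.2 FPKM. Both knockout libraries were above both wild-type libraries, and the knockout mean was 391% of the wild-type mean. The log2 change was 1.75 (SE 0.39, limma adjusted p = 0.0330). The call ended with a pseudocount of 0.1, at a limma adjusted p of 0.0513, and when genes of low level were kept, at 0.0716. It also ended without wild-type library 1 (0.361) and without wild-type library 2 (0.355). Its relative Slc25a37 (mitoferrin 1) was below the level rule and listed at 0 in both knockout libraries. Other members with both knockout values higher, named after their values were seen, did not pass. Slc25a2, an ornithine carrier, was at 72.7 and 62.9 versus 108 and 92.9 FPKM (limma adjusted p = 0.235). Slc25a10, a dicarboxylate carrier, was at 4.57 and 6.87 versus 14.5 and 9.11 FPKM (limma adjusted p = 0.185). Slc25a12, an aspartate-glutamate carrier, was at 1.25 and 0.781 versus 4.34 and 1.998 FPKM (limma adjusted p = 0.168). On the lower side, Slc25a11, the oxoglutarate carrier, was at 15.9 and 16.6 versus 8.39 and 3.77 FPKM (limma adjusted p = 0.0944), and Slc25a46, of the outer membrane, at 28.7 and 26.1 versus 14.0 and 14.2 FPKM (limma adjusted p = 0.106).

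Carriers of amino acids, peptides and neurotransmitters numbered 17, of which 11 were tested, 3 fell and 8 did not pass, with a median log2 change of -1.04. The falls were 27.3% of the tested members, beside the 13.9% of tested genes at that wild-type level. The 3 that fell belong to families of proton- or sodium-coupled amino acid transporters, and 2 of them to the Slc36 family. Slc36a4 went from 3.56 and 5.26 FPKM to 0.271 FPKM and 0 (log2 change -2.24, SE 0.36, limma adjusted p = 0.0104). Slc36a3 and Slc36a4 were the members of that family above the level rule. Slc38a9, the arginine sensor of lysosomes that signals to mTORC1, fell from 5.19 and 4.63 FPKM to 1.34 and 1.06 FPKM (log2 change -1.43, SE 0.34, limma adjusted p = 0.0428). The call also ended after median-ratio scaling (limma adjusted p = 0.057). Slc1a2, a glutamate transporter, was at 12.8 and 17.4 FPKM in wild-type cells and at 19.1 and 1.60 FPKM in knockout cells, so that its knockout libraries lay on either side of the wild type (limma adjusted p = 0.444). Slc3a2, the heavy chain that brings Slc7 light chains to the surface, was at 6.32 and 13.7 versus 10.6 and 2.58 FPKM (limma adjusted p = 0.522). Of its light chains, named with their values known, Slc7a6 stood at 6.196 and 6.26 versus 4.50 and 6.78 FPKM. Slc7a7 stood at 1.84 and 2.58 versus 0.350 and 0.773 FPKM, and Slc7a5 at 0.715 and 2.27 versus 0.233 and 0.116 FPKM. Slc7a7 and Slc7a5 were lower in both knockout libraries. Slc7a7 did not pass (limma adjusted p = 0.103), and Slc7a5 was not tested. Slc6a6, the taurine transporter, was at 6.33 and 8.44 versus 2.32 and 2.40 FPKM, with both knockout libraries lower, and came close to the threshold (log2 change -1.31, SE 0.36, limma adjusted p = 0.0637).

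Metal carriers numbered 18, of which 15 were tested, 2 fell and 13 did not pass, with a median log2 change of -0.93. The share that fell was 13.3%, beside 13.9% of tested genes at that wild-type level. Slc39a12 (ZIP12), a zinc importer, fell (log2 change -2.45, SE 0.33, limma adjusted p = 0.00567). Slc31a2 (CTR2), a copper transporter of internal membranes, fell from 4.82 and 4.94 FPKM to 0.614 FPKM and 0 (log2 change -2.21, SE 0.38, limma adjusted p = 0.0136). The surface copper importer Slc31a1, named with its values known, stood at 5.52 and 6.24 versus 3.45 and 4.07 FPKM (limma adjusted p = 0.344). The most abundant metal carriers overlapped between genotypes. Slc30a3 (ZnT3), which loads zinc into vesicles, was at 17.9 and 29.0 versus 28.3 and 20.0 FPKM (log2 change 0.06, 95% interval -0.88 to 1.001). Slc41a3, a magnesium carrier, was at 17.4 and 30.8 versus 24.1 and 13.3 FPKM (log2 change -0.35, 95% interval -1.45 to 0.75). Slc39a6 (ZIP6) was at 8.09 and 16.1 versus 9.01 and 5.39 FPKM (limma adjusted p = 0.391). In 8 tested metal carriers (53.3%, beside 40.0% of tested genes at that wild-type level) both knockout values were lower, and in 1 (6.67%, beside 20.8%), the zinc importer Slc39a3, both were higher, at 3.38 and 5.06 versus 9.56 and 9.94 FPKM (limma adjusted p = 0.113).

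Carriers of nucleosides, nucleotide sugars and coenzymes (12, all tested) held 0 calls in limma in either direction, with 2 at an unadjusted p under 0.05. Of tested genes with a wild-type mean of at least 1 FPKM, 13.9% fell and 1.56% rose. Between genotypes 10 of the 12 overlapped. Of tested genes at that level, both knockout values were lower in 40.0% and higher in 20.8%. Slc35b1, which exchanges ATP for ADP across the membrane of the endoplasmic reticulum, was at 60.3 and 49.6 versus 68.5 and 48.1 FPKM (log2 change 0.07, 95% interval -0.72 to 0.86). Slc35a3, which carries UDP-N-acetylglucosamine into the Golgi, was at 14.8 and 17.7 versus 15.5 and 9.63 FPKM (limma adjusted p = 0.525). Slc29a1 (ENT1), a nucleoside transporter, was at 9.41 and 20.2 versus 38.5 and 17.8 FPKM (limma adjusted p = 0.306). The pair in which both knockout values were lower, Slc35a5 and Slc35f5, had limma adjusted p of 0.0855 and 0.144.

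Of the ion exchangers and anion carriers that the selection kept, 0 reached a wild-type mean of 10 FPKM; some exchangers had been left out by name. The sodium, potassium, calcium, proton and chloride class had 4 members, all tested, with 0 calls in limma and 1 at an unadjusted p under 0.05. The sodium-proton exchanger Slc9a5 was at 5.33 and 4.86 versus 4.38 and 5.26 FPKM (log2 change -0.07, 95% interval -0.93 to 0.79). Slc9a8, of the same exchanger family, was at 1.45 and 2.06 versus 0.593 and 0.335 FPKM (limma adjusted p = 0.124). Of the 4 carriers of bicarbonate, phosphate, sulfate and other anions 3 were tested, with 0 calls in limma and 1 at an unadjusted p under 0.05. Among tested genes with a wild-type mean of at least 1 FPKM 13.9% fell and 1.56% rose. The 0 calls in such small classes therefore say little. The phosphate carrier Slc34a2 was at 2.76 and 11.0 versus 5.48 and 1.98 FPKM, and the sulfate carrier Slc26a2 at 1.52 and 3.40 versus 2.82 and 1.81 FPKM. Slc4a7, a sodium bicarbonate cotransporter, was lower in both knockout libraries, at 1.84 and 2.92 versus 0.885 and 0.648 FPKM (limma adjusted p = 0.138).

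Among the chosen symbols 3 are named after a carrier without being one. Slc9a3r1 (NHERF1), a scaffold that holds exchangers at the membrane, was at 6.62 and 10.3 FPKM in wild-type cells and 19.3 and 21.8 FPKM in knockout cells. Both knockout libraries were higher (log2 change 1.21, SE 0.36, limma adjusted p = 0.0803), and the difference passed after median-ratio scaling (limma adjusted p = 0.0391) and quantile normalization (limma adjusted p = 0.0257), and without knockout library 1 (0.00395) or knockout library 2 (0.0265). Slc7a6os was at 13.0 and 12.1 versus 18.7 and 17.6 FPKM (limma adjusted p = 0.325), and Slc4a1ap at 2.35 and 3.84 versus 3.66 and 1.51 FPKM.

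The 13 carriers not tested had a wild-type mean between 1 and 2 FPKM and low knockout values, which is why their mean over 4 libraries fell short of 1. In 12 of them both knockout values were below both wild-type values, and the selection on wild-type level with a low mean over 4 libraries favours such genes. With no filter on low values 3 of the 13 passed as lower, Slc10a3, Slc25a35 and Slc44a5. They include 6 amino acid carriers, 3 metal carriers, 2 of the lipid and vitamin class, and 1 each of the mitochondrial and anion classes. Among them Slc44a5, Slc25a35 and Slc38a5 had values of 0 in each knockout library.

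The libraries of one genotype differed from each other in a way many carriers shared. In 85 of the 106 carriers wild-type library 2 was above wild-type library 1 (80.2%), where 58.7% of tested genes with a wild-type mean of at least 1 FPKM were. Knockout library 1 was above knockout library 2 in 76 (71.7%, beside 61.3%), and both held for 60 carriers (56.6%, beside 40.4%). The median absolute difference on the log2(FPKM + 1) scale was 0.41 for the wild-type pair and 0.55 for the knockout pair, beside 0.31 and 0.52. Slc2a3, Slc2a5, Slc2a8, Slc22a16 and Slc29a1 were all of this kind, whereas Slc16a7 and Slc25a39 differed little between the wild-type libraries. The summed Sertoli cell markers differed in the same order, being highest in wild-type library 2 and lowest in knockout library 2, and their part in it was not tested.

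**Figure D4:**
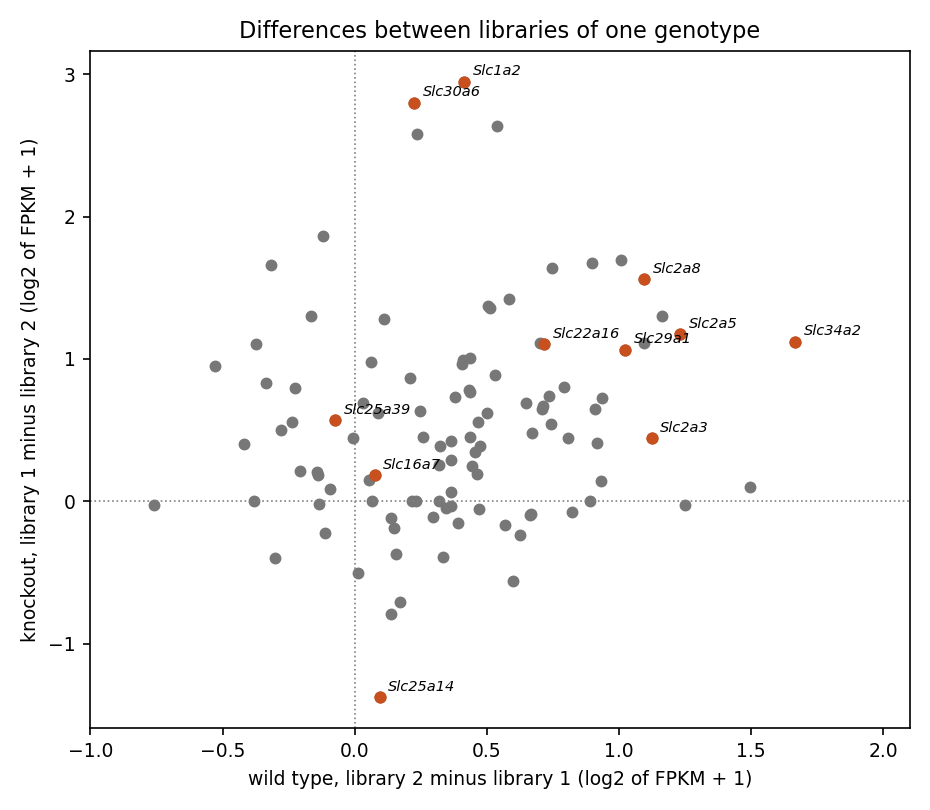
Difference within the wild-type pair (horizontal, library 2 minus library 1) and within the knockout pair (vertical, library 1 minus library 2) on the log2(FPKM + 1) scale, with 1 point per carrier and some named in colour. Of the 106 carriers 60 lie in the upper right, where wild-type library 2 and knockout library 1 were the higher ones.

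Proteins that work with the carriers were described with lists of their own. Of 25 carrier partners and ion pumps 12 were tested, 5 fell and 0 rose (median log2 change -0.64), where 13.4% of all tested genes fell and 1.95% rose. The fallen genes included parts of the sodium pump, whose gradient drives many carriers. Atp1a4, the sperm-specific catalytic subunit, went from 16.1 and 24.1 FPKM to 0.360 and 0.0167 FPKM (log2 change -4.14, SE 0.40, limma adjusted p = 0.00166). Its regulators Fxyd2, at 16.1 and 8.498 FPKM, and Fxyd1, at 9.005 and 8.42 FPKM in the wild type, had values of 0 in each knockout library (limma adjusted p = 0.00292 and 0.00191). The other two were Atp1b3, a beta subunit, at 66.7 and 66.7 versus 18.4 and 16.5 FPKM, and Car2, a carbonic anhydrase also abundant in red blood cells, at 12.8 and 6.03 versus 0.0330 FPKM and 0. Not all listed genes of the pump fell. Fxyd5 was higher in both knockout libraries, at 15.5 and 15.6 versus 23.3 and 31.1 FPKM, and did not pass (limma adjusted p = 0.176). Atp1b1 overlapped between genotypes, at 1.28 and 3.91 versus 2.17 and 0.945 FPKM. Bsg, a chaperone of several MCT proteins, was at 768 and 658 versus 719 and 534 FPKM (log2 change -0.20, SE 0.29, limma adjusted p = 0.672). Brp44, a subunit of the mitochondrial pyruvate carrier, was at 831 and 712 versus 882 and 1185 FPKM (limma adjusted p = 0.375).

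Of 27 genes of hexose and lactate use 19 were tested, 1 fell and 1 rose (median log2 change -0.16), where 13.4% of all tested genes fell and 1.95% rose. Gapdhs, glyceraldehyde-3-phosphate dehydrogenase of sperm, stood at 54.9 and 34.7 FPKM and was listed at 0 in both knockout libraries (log2 change -5.48, SE 0.39, limma adjusted p = 0.00075). Hk3, a hexokinase, was at 1.03 and 1.01 FPKM versus 6.40 and 10.3 FPKM (log2 change 2.18, SE 0.38, limma adjusted p = 0.0149), a call that ended when genes of low level were kept (limma adjusted p = 0.0569). Ldhc, the germ-cell lactate dehydrogenase, was at 5003 and 4016 versus 5186 and 5056 FPKM (limma adjusted p = 0.659), and Ldha at 492 and 539 versus 926 and 483 FPKM (limma adjusted p = 0.530). The Slco family of organic anion carriers, which the symbol rule does not reach, had 15 listed genes. Of these 4 were tested and 0 passed in limma, beside those 13.4% and 1.95%, with 2 at an unadjusted p under 0.05. The testis members Slco6c1 and Slco6d1 were at 103 and 90.3 versus 49.98 and 54.6 FPKM and at 36.4 and 30.5 versus 22.1 and 13.6 FPKM, each lower in both knockout libraries (limma adjusted p = 0.0966 and 0.154).

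In the GENCODE M21 annotation 28 of the 106 genes share exon bases with another gene. The sources used here do not say whether counting used strand, so their levels may include reads of the neighbour. Among the 13 carriers past the threshold this applied to Slc16a7, which shares 1.56% of its exon bases with Gm47862 on the opposite strand.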

How the data were processed

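Haploid cells sorted from mouse testis gave 4 RNA libraries, 2 wild-type and 2 Sox30 knockout, grouped by sample titles. Each deposited table holds FPKM from the authors. TopHat2 2.0.6, Cufflinks 2.0.2, Cuffdiff and build mm9 are listed in the submitters' processing notes, without roles or settings in the sources used here. Read counts were not used here, so absolute depth is unknown and no counting intervals are given. Rows of one symbol were summed (259 of 22552 symbols; 0 carriers). The 9124 genes with a mean of at least 1 FPKM over the 4 libraries were tested as log2(FPKM + 1) with limma 3.58.1 in R 4.3.3, with genotype as the only term, a trended prior variance, 2 residual and 3.84 prior degrees of freedom. P-values are two-sided and Benjamini-Hochberg adjusted over all 9124 genes, with a threshold of 0.05 and 95% intervals from the same fit. The fit was tested on simulated data.

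Carriers, substrate classes (by family number) and gene lists were chosen with earlier results of these data known. Named genes are Slc2a3, Slc2a5, Slc16a7, each carrier past the threshold, the 3 of highest wild-type mean in each class and, per pathway list, up to 3 past the threshold and the 2 most abundant; others were named with their values known, or illustrate a count, a library difference, a close relative or the level rule. One carrier that this rule names is not reported here. Promoter sequences and their coordinates come from RefSeq (GRCm38.p6), exon overlap and GC content from GENCODE M21; both builds differ from the authors', and no deposited coordinates were used. Other settings tried are given in the closing section; the GC correction (lowess, span 0.3) and the crossed numbers were chosen after seeing the data.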

Additional observations from a re-analysis of the deposited data

How the results depend on the processing

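The number of fallen carriers stayed within 1.5 times the 12 reported with pseudocounts of 0.1 and 5 (8 and 12), no filter on low values (10, of which 7 were among those reported), median-ratio scaling (11), quantile normalization (10), symbols listed once (12) and the GC correction (12, of which 10 were among those reported). A filter at a mean of 5 FPKM left 4 falls, and 4 were found among carriers with a wild-type mean of at least 5 FPKM, which include fewer carriers. Leaving out 1 library gave 0 to 44 falls and 0 to 9 rises, as set out per library in the report. Rises numbered 0 with a pseudocount of 0.1 and with no filter on low values, 2 with median-ratio scaling and 7 with quantile normalization; the cause was not tested. With the library number as a replicate block 10 fell and 0 rose, with 21 at an unadjusted p under 0.05 (limma adjusted p = 0.0556 for Slc25a28). The labels give no pairing, so the numbers were not taken as pairs in the main fit. Deviations of same-numbered libraries had a correlation of -0.20 across 9124 genes, which cannot decide whether they were paired. With crossed numbers as the block 12 fell and 2 rose. No named gene past the threshold changed direction. Of the carriers past the threshold, Slc38a9 and Slc25a24 lost their calls most often (8 of 13 and 7 of 13 settings). Fits with a lone library assume that it varies like the other genotype's libraries.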
